A study of Mus musculus with 10 samples.

Results

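The genes described here are the D-type cyclins, the kinases they activate and the inhibitors of those kinases: Ccnd1, Ccnd2, Ccnd3, Cdk4, Cdk6, Cdkn1a, Cdkn1b, Cdkn1c, Cdkn2c and Cdkn2d. These 10 genes were taken by symbol from the 16771 genes listed for each library, and all 10 were found. RNA was sequenced from bone marrow of C57BL/6 mice in 10 libraries, 2 biological replicates in each of 5 groups. The groups were double mutant cells (Npm1flox-cA/+;Flt3ITD/+;Mx1-Cre+), Npm1c cells (Npm1flox-cA/+;Mx1-Cre+), Flt3-ITD cells (Flt3ITD/+), wild-type (WT) neutrophils and WT cells. Except for the neutrophils, which came from a neutrophil isolation kit, the cells were lineage-negative haematopoietic stem and progenitor cells (HSPC), those left after magnetic depletion of cells with mature lineage markers. Npm1c is the cytoplasmic mutant form of a nucleolar chaperone, here on 1 floxed allele opened by a Cre under the interferon-inducible Mx1 promoter. Flt3-ITD is an internal tandem duplication on 1 allele of a receptor tyrosine kinase. The Cre was labelled in the double mutant and Npm1c groups but not in Flt3-ITD or WT cells. Cre and Npm1c thus cannot be told apart in comparisons against WT or against Flt3-ITD cells. The age and sex of the mice and any induction of the Cre were not given in the sources used here.

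A cell commits to division late in G1 phase. D cyclins, made in response to growth factors, bind CDK4 or CDK6, and these kinases phosphorylate the retinoblastoma protein RB, which then releases E2F factors to switch on genes of S phase. The INK4 inhibitors, p18 (Cdkn2c) and p19 (Cdkn2d) among them, bind CDK4 and CDK6 directly. The CIP/KIP inhibitors p21 (Cdkn1a), p27 (Cdkn1b) and p57 (Cdkn1c) act on cyclin-bound kinases, above all those containing CDK2. In blood cells CDK6 is the kinase best known in stem and progenitor cells, and p18, p27 and p57 are known for restraining their division.

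The library totals behind the deposited values were recovered as 40783015 to 57824373 reads. Levels are given as rescaled RPKM, the deposited RPKM (reads scaled by gene length and library total) divided by a library factor of 0.696 to 1.2702 that sets the typical gene equal across libraries. Each group had 2 libraries, and a change was called at a Benjamini-Hochberg adjusted p under 0.05 from limma over all genes tested. Log2 changes are on the log2(rescaled RPKM + 0.5) scale, with the standard error (SE) of the fit. They understate changes of low genes.

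The double mutant libraries stood apart in marker genes of other cells. The summed level of the 10 dendritic cell markers was 4936.8 to 4994.2 rescaled RPKM in double mutant libraries, against 33.1 to 33.8 in WT HSPC libraries. In double mutant HSPC, Cd74, which chaperones MHC class II, averaged 1637.4 rescaled RPKM and Xcr1, a dendritic cell chemokine receptor, averaged 107.1, against 9.28 and 0.189 in WT HSPC. The 10 monocyte and macrophage markers summed to 932 to 944 in double mutant libraries, against 158 to 160 in WT HSPC libraries, and Mpeg1 and Lyz2 carried most of that sum (576.2 and 179.4 in double mutant HSPC, 17.0 and 63.1 in WT HSPC). Of the others, Csf1r averaged 7.99 in double mutant HSPC and 7.09 in WT HSPC, and F13a1 averaged 5.41 in double mutant HSPC and 32.1 in WT HSPC. The 9 mast cell, basophil and eosinophil markers summed to 10.4 to 14.3 in double mutant libraries, against 471 to 487 in WT HSPC libraries. In neutrophil libraries they summed to 991 to 1014. The 12 erythroid markers summed to 1106 to 1128 in double mutant libraries and 612 to 645 in WT HSPC libraries. Of these, Hbb-bs averaged 404.1 in double mutant HSPC and 85.9 in WT HSPC, whereas Gata1 averaged 21.1 and 49.4. The 9 megakaryocyte and platelet markers summed to 55.9 to 56.0 in double mutant libraries and 213 to 223 in WT HSPC libraries. The 12 HSPC markers summed to 396 to 397 in double mutant libraries, against 1265 to 1333 in WT HSPC libraries. Mpo, Elane, Ctsg and Car1 carried most of that sum. They averaged 18.6, 30.6, 34.9 and 213.0 in double mutant HSPC and 230.2, 309.5, 210.8 and 405.5 in WT HSPC. Of the others, Cd34 and Myb averaged 3.30 and 10.4 in double mutant HSPC and 12.3 and 46.7 in WT HSPC. Kit averaged 8.63 and 11.6, Meis1 0.759 and 0.743, and Cd48 64.0 and 14.8, in the same order. The 12 late neutrophil markers summed to 142750 to 143560 in neutrophils, as labelled, against 45.5 to 59.9 in WT HSPC, though Elane, a primary granule protease of immature cells, averaged 326 in neutrophils and 309.5 in WT HSPC. In the single mutants the late neutrophil sum was 88.6 to 405.6 in Npm1c and 248 to 256 in Flt3-ITD libraries, above both WT HSPC libraries. The HSPC sum, which overlapped that of WT HSPC, was 1241 to 1334 in Npm1c and 1176 to 1849 in Flt3-ITD libraries. These markers move with the double mutant, single mutant and neutrophil results below, and their part in those results was not tested. In such bulk samples, fewer cells of a type and less RNA per cell cannot be told apart. Genes of the Y chromosome were read in Npm1c replicate 2 and Flt3-ITD replicate 1 and were near the floor in the other 8 libraries.

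**Figure D1:**
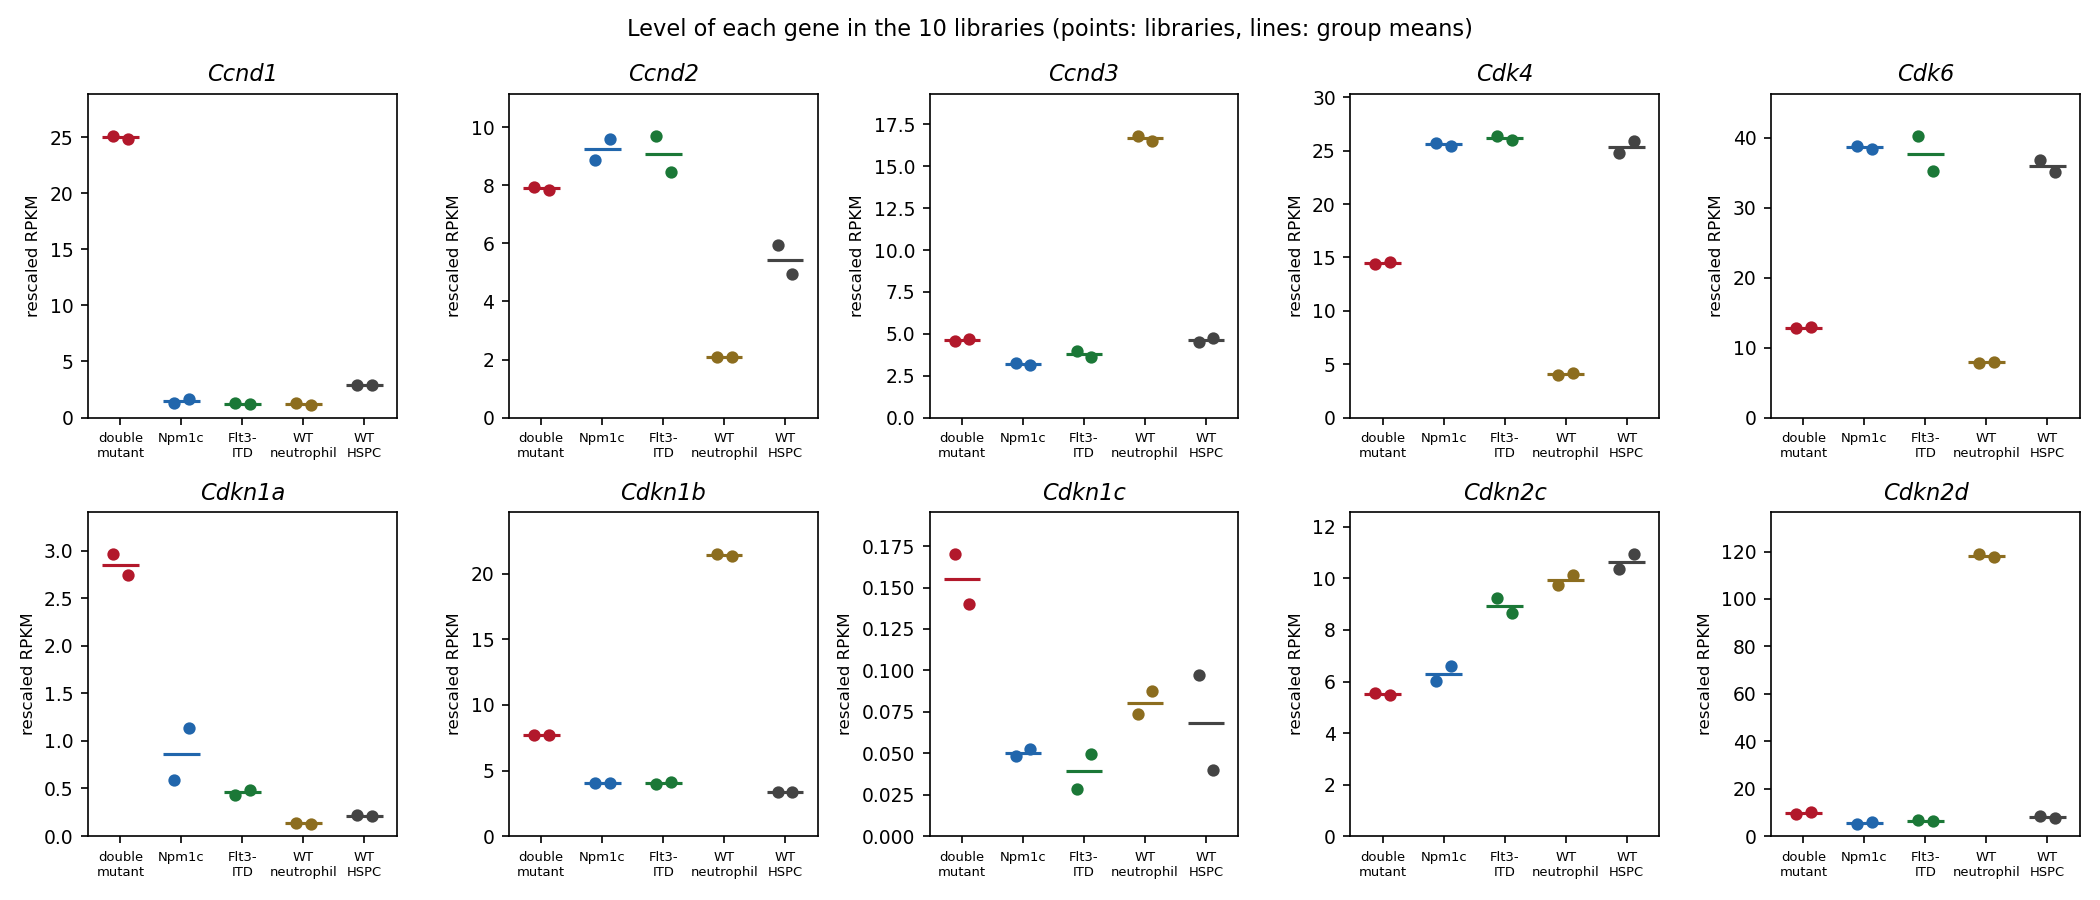
Rescaled RPKM of each of the 10 genes (linear axes from 0), with 1 point for each of the 2 libraries of a group and a line at the group mean. Ccnd1 and Cdkn1a were highest in double mutant HSPC (means of 24.98 and 2.85 rescaled RPKM), and Ccnd3, Cdkn1b and Cdkn2d in WT neutrophils (means of 16.7, 21.4 and 118.2).

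Among the D cyclins, Ccnd1 set the double mutant apart. It had 25.1 and 24.8 rescaled RPKM in double mutant HSPC, 1.29 and 1.67 in Npm1c HSPC, 1.29 and 1.17 in Flt3-ITD HSPC, 1.31 and 1.13 in WT neutrophils and 2.87 and 2.90 in WT HSPC. The libraries of the double mutant lay above all others, and WT HSPC lay above both single mutants, whose ranges overlapped each other. The double mutant rose by a log2 change of 2.91 (SE 0.09, adjusted p = 1.64e-07, limma) against WT HSPC. That rise ranked 278 from the highest of the 9517 genes tested. The single mutants went the other way. Ccnd1 fell by 0.78 on the log2 scale in Npm1c HSPC (SE 0.09, adjusted p = 0.00205, limma) and by 0.97 in Flt3-ITD HSPC (SE 0.09, adjusted p = 0.00315, limma), where it ranked 15 from the lowest of 9517 genes tested. The double mutant exceeded Npm1c HSPC by 3.69 (SE 0.09, adjusted p = 4.33e-08, limma) and Flt3-ITD HSPC by 3.88 (SE 0.09, adjusted p = 4.18e-08, limma). These differences ranked 176 and 107 from the highest. Comparisons with WT HSPC share the WT libraries, and those of the double mutant share its libraries.

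Ccnd2, the D cyclin induced by cytokines in many blood cells, was higher in all 3 mutant groups. It had 7.96 and 7.83 rescaled RPKM in double mutant HSPC, 8.87 and 9.61 in Npm1c HSPC, 9.71 and 8.45 in Flt3-ITD HSPC, 2.07 and 2.09 in WT neutrophils and 5.94 and 4.95 in WT HSPC. Every mutant library lay above both WT HSPC libraries, and the neutrophils lay lowest. The log2 change against WT HSPC was 0.50 in the double mutant (SE 0.10, adjusted p = 0.00202, limma), 0.72 in Npm1c (SE 0.10, adjusted p = 0.00303, limma) and 0.69 in Flt3-ITD (SE 0.10, adjusted p = 0.00845, limma). On the deposited scale the double mutant change was 0.20 and not called (adjusted p = 0.193, limma). Without WT HSPC replicate 2 the Flt3-ITD change was 0.57 and not called (adjusted p = 0.0658, limma). Double mutant and single mutants did not pass the threshold against each other (-0.21 against Npm1c, adjusted p = 0.0728, and -0.19 against Flt3-ITD, adjusted p = 0.11, limma). After quantile normalization the double mutant was called lower than both (-0.31 and -0.30, adjusted p = 0.0199 and 0.0234, limma), and without Flt3-ITD replicate 2 lower than Flt3-ITD (-0.28, adjusted p = 0.0342, limma).

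Ccnd3, prominent in maturing myeloid and lymphoid cells, was the D cyclin of neutrophils. It had 4.596 and 4.70 rescaled RPKM in double mutant HSPC, 3.23 and 3.16 in Npm1c HSPC, 3.999 and 3.63 in Flt3-ITD HSPC, 16.8 and 16.5 in WT neutrophils and 4.53 and 4.72 in WT HSPC. The double mutant and WT HSPC ranges overlapped, and their log2 difference of 0.01 was not called (adjusted p = 0.925, limma). That difference was -0.30 on the deposited scale (adjusted p = 0.0159, limma) and -0.15 after quantile normalization (adjusted p = 0.0431, limma). Ccnd3 fell by 0.47 on the log2 scale in Npm1c (SE 0.06, adjusted p = 0.00216, limma) and by 0.25 in Flt3-ITD (SE 0.06, adjusted p = 0.0282, limma). Leaving out either WT HSPC replicate ended the Flt3-ITD call (adjusted p = 0.107 and 0.166, limma).

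The balance of the D cyclins differed between the groups. Ccnd1 made up 66.6% ± 0.153 of the summed D cyclin RPKM in double mutant HSPC, 10.6% ± 1.39 in Npm1c HSPC, 8.72% ± 0.131 in Flt3-ITD HSPC, 6.11% ± 0.511 in WT neutrophils and 22.3% ± 1.10 in WT HSPC (SD, n = 2 each). The Ccnd2 share was 21.05% in double mutant HSPC, 66.4% in Npm1c, 64.2% in Flt3-ITD, 10.4% in neutrophils and 41.9% in WT HSPC. Ccnd3 held 12.4% in double mutant HSPC, 23.0% in Npm1c, 27.0% in Flt3-ITD, 83.5% in neutrophils and 35.7% in WT HSPC. These shares depend on gene length. For 10272 genes the length implied by the RPKM had a median ratio of 0.995 to the summed exons of all annotated transcripts, and 67.4% of genes lay within 5% of that sum. For Ccnd1 it was 4203 bases, under its merged exons (4709) and its transcript sum (5983). For Ccnd3 the implied length was 24708 bases, against 8775 bases of merged exons and 2113 bases in its principal transcript. With merged exons Ccnd1 made up 48.1% in double mutant HSPC and 11.1% in WT HSPC, and with principal transcripts 28.4% and 4.73%. The Ccnd1 share was highest in double mutant HSPC under all 3 lengths. A length scales each gene equally in all groups, so this is 1 result and not 3. The leading cyclin in double mutant HSPC was Ccnd1 with the first 2 lengths and Ccnd3, at 55.0%, with principal transcripts. Changes of 1 gene between groups do not involve its length.

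**Figure D2:**
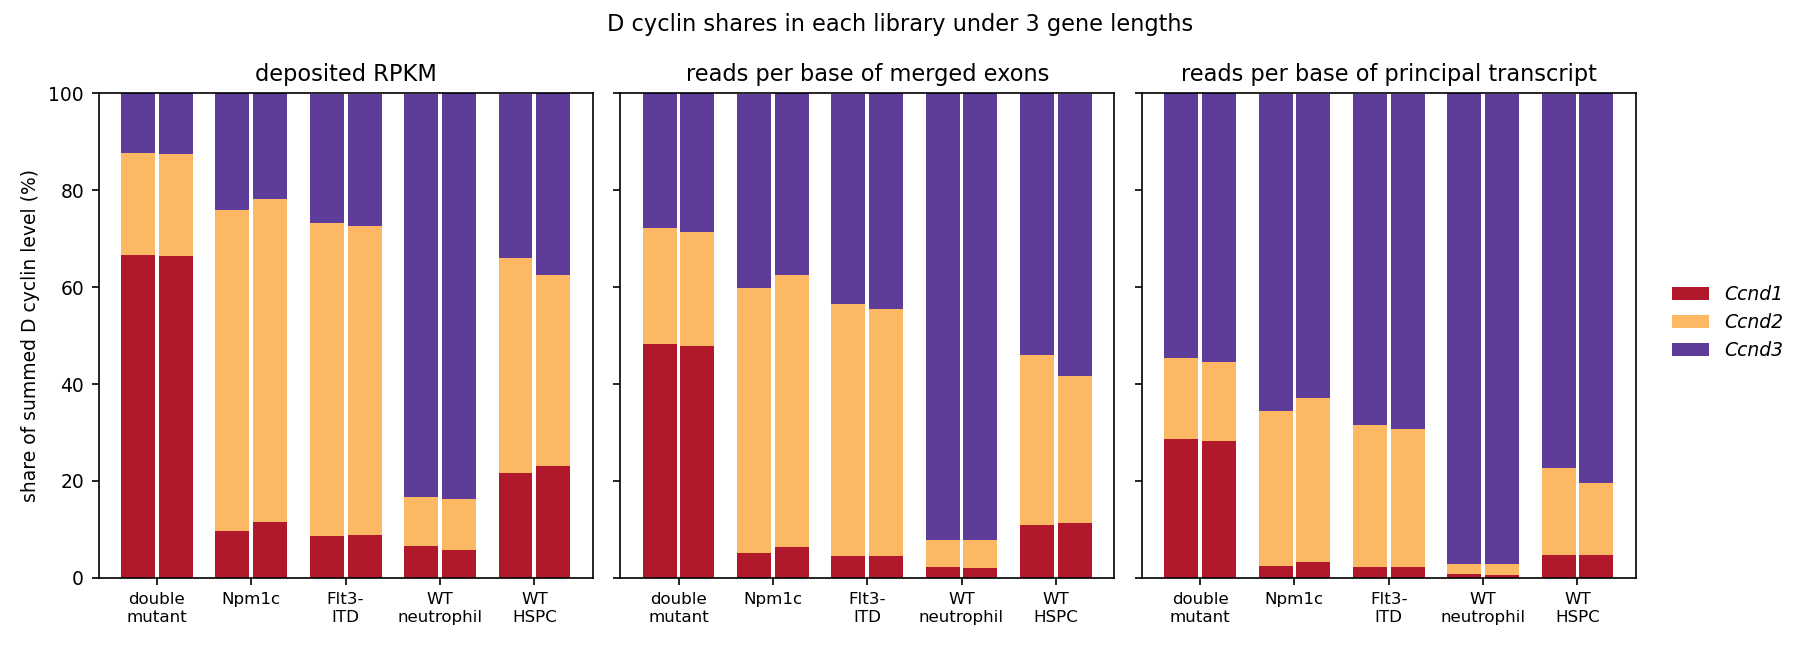
Share of each D cyclin in their summed level (percent, stacked bars from 0), with 1 bar per library and 1 panel per gene length. The Ccnd1 share was highest in the double mutant bars of each panel (means of 66.6%, 48.1% and 28.4%). The panels scale the same reads by other gene lengths and are not separate support.

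Both kinases were lower in double mutant HSPC and lower still in neutrophils, while neither was called in the single mutants. Cdk4 had 14.4 and 14.5 rescaled RPKM in double mutant HSPC, 25.8 and 25.4 in Npm1c HSPC, 26.4 and 26.0 in Flt3-ITD HSPC, 3.95 and 4.19 in WT neutrophils and 24.8 and 25.9 in WT HSPC. Cdk6 had 12.8 and 12.96 in double mutant HSPC, 38.9 and 38.4 in Npm1c HSPC, 40.3 and 35.2 in Flt3-ITD HSPC, 7.78 and 7.997 in WT neutrophils and 36.9 and 35.1 in WT HSPC. For both genes the double mutant libraries lay below every other HSPC library and above both neutrophil libraries. Cdk4 fell by 0.79 on the log2 scale in double mutant HSPC against WT HSPC (SE 0.04, adjusted p = 2.69e-06, limma), and Cdk6 fell by 1.45 (SE 0.07, adjusted p = 1.22e-06, limma). Neither kinase was called in Npm1c (0.01 for Cdk4, adjusted p = 0.802, and 0.10 for Cdk6, adjusted p = 0.254, limma) or in Flt3-ITD (0.05, adjusted p = 0.451, and 0.07, adjusted p = 0.517, limma). On the deposited scale, Cdk4 was called lower in Npm1c (-0.30, adjusted p = 0.00838, limma), and without Flt3-ITD replicate 2, Cdk6 was called higher in Flt3-ITD (0.16, adjusted p = 0.0357, limma). The log2 ratio of Cdk6 to Cdk4 within a library averaged -0.17 in double mutant HSPC, 0.60 in Npm1c, 0.53 in Flt3-ITD, 0.96 in neutrophils and 0.51 in WT HSPC on the deposited lengths. Its sign rests on those lengths, since it was -0.72 in WT HSPC with merged exons. The double mutant mean was the lowest. Another gene length shifts this ratio equally in all groups, so their order could not change with it.

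The genes whose profile over the 10 libraries was closest to that of Cdk4 were Fkbp4, a chaperone partner of HSP90, Smyd2, a lysine methyltransferase, and Ipo5, a nuclear import receptor, with root mean square differences of 0.0533, 0.0872 and 0.0916 on the log2 scale. Those closest to Cdk6 were Adgrg1, an adhesion receptor of stem cells, at 0.108, Pfas, an enzyme of purine synthesis, at 0.137, and Slc35g1 at 0.145. For Ccnd1 they were Tubb6, a beta tubulin, at 0.290, Snx22 at 0.317 and Fndc7 at 0.367. All were taken from 8569 candidate genes, those with a highest group mean of at least 2 rescaled RPKM. Fndc7 met that minimum only through the double mutant (6.02 rescaled RPKM, against 0.0056 in Flt3-ITD HSPC and less in the other groups). It was thus high there by selection.

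Promoter sequence is shown for Cdk4, for its copies of CACGTG, and for Cdkn1a, for its match to a loosened p53 pattern. RefSeq windows on GRCm38.p6 were matched for 7 of the genes (10 windows), and the 250 bases before each start were searched on both strands for 6 patterns. Ccnd1, Ccnd2 and Cdkn1c had no window. CACGTG, the E-box read by MYC and related factors, reads the same on both strands. Cdk4 held 4 copies, at -172, -118, -98 and -11 from the start, and Cdk6 held 1. Of all 32851 windows, 6.02% held at least 1 copy and 0.0213% (7 windows) held 4 or more. The p53 response element, 20 letters made of 2 copies of a shorter site, was found in 3 windows and in none of these genes. After that result the search was repeated allowing 1 mismatch outside the fixed C and G of each copy, because a p53 site upstream of Cdkn1a is well known. The looser pattern matched 19 windows (0.0578%), 1 of them before the upstream Cdkn1a start, at -51. The 2 Cdkn1a starts lie 2790 bases apart, and the window of the downstream start held no match to it. GGGCGG was in 7 of the 10 windows and 32.7% of all windows. Cdkn2c and Cdkn2d held 3 copies each, a Cdkn1a window 2, Cdk4 and Cdkn1b 1 each, and Ccnd3 windows 2 and 1. TTTNNCGC, an E2F pattern, was in the Cdk6 window and 4.28% of all, and TTCNNNGAA, a STAT pattern, in none of the 10 and 7.02% of all. The matches describe letters, not binding. Both sequences run 5′ to 3′ on the plus strand with matches in capitals, Cdk4 at chr10:127063285-127063534 and Cdkn1a at chr17:29090729-29090978.
Cdk4: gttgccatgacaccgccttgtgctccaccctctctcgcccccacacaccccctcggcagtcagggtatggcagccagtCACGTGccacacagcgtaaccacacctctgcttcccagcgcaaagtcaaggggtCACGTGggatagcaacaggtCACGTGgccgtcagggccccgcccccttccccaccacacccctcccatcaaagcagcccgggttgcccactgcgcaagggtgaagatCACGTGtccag
Cdkn1a: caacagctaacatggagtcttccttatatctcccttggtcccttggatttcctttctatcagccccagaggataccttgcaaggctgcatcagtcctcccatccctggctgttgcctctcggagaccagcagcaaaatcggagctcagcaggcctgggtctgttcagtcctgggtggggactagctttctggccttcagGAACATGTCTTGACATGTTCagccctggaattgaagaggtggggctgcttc

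Among the regulators known to act on these genes, Myc averaged 3.89 rescaled RPKM in double mutant HSPC, 8.16 in Npm1c, 6.58 in Flt3-ITD, 0.432 in neutrophils and 5.21 in WT HSPC. Myc rose by a log2 change of 0.60 in Npm1c (SE 0.05, adjusted p = 0.00114, limma) and of 0.31 in Flt3-ITD (SE 0.05, adjusted p = 0.0145, limma) against WT HSPC. The part of Myc in the levels of Cdk4 was not tested. In neutrophils Myc fell by 2.62 on the log2 scale (SE 0.05, adjusted p = 4.13e-10, limma). Of the 9 tested regulators, 2 rose and 7 fell in double mutant against WT HSPC, where 78.1% of all genes tested were called, and Foxo1, a factor that induces Cdkn1b, rose by 1.02 (SE 0.06, adjusted p = 4.19e-06, limma). In Npm1c, 2 rose and 3 fell, where 38.4% of all genes were called, and in Flt3-ITD, 1 rose and 3 fell, where 17.4% were.

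Of the CIP/KIP inhibitors, Cdkn1a and Cdkn1b were both higher in double mutant HSPC. Cdkn1a, a transcriptional target of p53, had 2.96 and 2.75 rescaled RPKM in double mutant HSPC, 0.590 and 1.14 in Npm1c HSPC, 0.436 and 0.486 in Flt3-ITD HSPC, 0.141 and 0.124 in WT neutrophils and 0.219 and 0.211 in WT HSPC. The 5 groups did not overlap, although the Npm1c libraries differed from each other more than those of any other group. Cdkn1a met the minimum of 1 rescaled RPKM through the double mutant libraries and Npm1c replicate 2, so it was a gene high there by selection. Its log2 change against WT HSPC was 2.23 in the double mutant (SE 0.17, adjusted p = 1.48e-05, limma), 0.90 in Npm1c (SE 0.17, adjusted p = 0.00765, limma) and 0.43 in Flt3-ITD (SE 0.17, adjusted p = 0.119, limma). Without WT HSPC replicate 2 the Npm1c change of 0.89 was not called (adjusted p = 0.0564, limma). Mdm2, another p53 target, rose by 0.45 in Npm1c HSPC (SE 0.06, adjusted p = 0.00335, limma), with means of 2.42 rescaled RPKM in Npm1c HSPC and 1.63 in WT HSPC. The part of p53 in the Cdkn1a changes was not tested.

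Cdkn1b had 7.74 and 7.70 rescaled RPKM in double mutant HSPC, 4.05 and 4.01 in Npm1c HSPC, 3.96 and 4.13 in Flt3-ITD HSPC, 21.5 and 21.3 in WT neutrophils and 3.33 and 3.38 in WT HSPC. Neutrophils were highest, the double mutant next, and the single mutants overlapped each other above WT HSPC. It rose by 1.09 in the double mutant against WT HSPC (SE 0.04, adjusted p = 6.35e-07, limma), by 0.23 in Npm1c (SE 0.04, adjusted p = 0.00847, limma) and by 0.24 in Flt3-ITD (SE 0.04, adjusted p = 0.0177, limma). Both single mutant calls were lost on the deposited scale (-0.05, adjusted p = 0.439, and 0.08, adjusted p = 0.305, limma) and without either WT HSPC replicate. Cdkn1c was read 7 to 29 times per library, stayed under the minimum in all 10 and was not tested in the main fit. It had 0.170 and 0.140 rescaled RPKM in double mutant HSPC, against 0.0969 and 0.0396 in WT HSPC. With no filter, 6 genes instead of 5 were called higher in double mutant HSPC against WT, Npm1c and Flt3-ITD HSPC and in the interaction. The added gene was Cdkn1c, at these few reads.

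The INK4 genes moved apart in double mutant HSPC. Cdkn2c had 5.55 and 5.48 rescaled RPKM in double mutant HSPC, 6.02 and 6.60 in Npm1c HSPC, 9.25 and 8.64 in Flt3-ITD HSPC, 9.76 and 10.2 in WT neutrophils and 10.4 and 10.9 in WT HSPC. The groups did not overlap, and all mutant groups lay below WT HSPC. It fell by 0.89 on the log2 scale in the double mutant (SE 0.06, adjusted p = 9.76e-06, limma), by 0.71 in Npm1c (SE 0.06, adjusted p = 0.00101, limma) and by 0.24 in Flt3-ITD (SE 0.06, adjusted p = 0.0399, limma). The Flt3-ITD call was lost under several alternatives, among them no filter and fits without either WT HSPC replicate or without Flt3-ITD replicate 2. Cdkn2d had 9.38 and 10.05 rescaled RPKM in double mutant HSPC, 5.08 and 5.76 in Npm1c HSPC, 6.81 and 6.27 in Flt3-ITD HSPC, 118.8 and 117.6 in WT neutrophils and 8.29 and 7.56 in WT HSPC. The double mutant libraries lay above and the single mutant libraries below WT HSPC. Cdkn2d fell by 0.51 on the log2 scale in Npm1c (SE 0.08, adjusted p = 0.00448, limma), and its change of -0.26 in Flt3-ITD was not called (adjusted p = 0.0625, limma). It was called on the deposited scale (-0.44, adjusted p = 0.0233, limma), with a Y-linked term (-0.33, adjusted p = 0.0277, limma) and without Flt3-ITD replicate 1 (-0.31, adjusted p = 0.0379, limma). Its rise of 0.28 in the double mutant against WT HSPC (SE 0.08, adjusted p = 0.013, limma) was -0.03 on the deposited scale (adjusted p = 0.774, limma). That call was also lost after quantile normalization and without WT HSPC replicate 2 or double mutant replicate 2 (adjusted p = 0.0562, 0.0889 and 0.0843, limma). Within a library the log2 ratio of Cdkn2d to Cdkn2c averaged 0.82 in double mutant HSPC, -0.22 in Npm1c, -0.45 in Flt3-ITD, 3.57 in neutrophils and -0.43 in WT HSPC on the deposited lengths.

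Against WT HSPC, 5 of the 9 tested genes rose and 3 fell in double mutant HSPC, where 78.1% of all 9517 genes tested were called, 36.9% higher and 41.2% lower. In Npm1c HSPC, 3 rose and 4 fell, where 38.4% of genes tested were called, 20.4% higher and 18% lower. In Flt3-ITD HSPC, 2 rose and 3 fell, where 17.4% were called, 8.61% higher and 8.78% lower. Their median log2 change was 0.28 in the double mutant, 0.01 in Npm1c and 0.05 in Flt3-ITD, beside medians over all genes tested of -0.04, 0.01 and 0.01. The double mutant share is near its background. Cdkn1a, high in the double mutant and Npm1c replicate 2 by selection, is counted among the 5 and the 3 that rose there. Library scaling sets part of the split: on the deposited scale the median gene moved by -0.34, -0.26 and -0.14 in these 3 comparisons. There 2316 genes were called higher and 5719 lower in the double mutant, against 3513 and 3918 after rescaling. In Npm1c 242 were higher and 5638 lower, against 1938 and 1716, and in Flt3-ITD 180 and 3033, against 819 and 836.

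**Figure D3:**
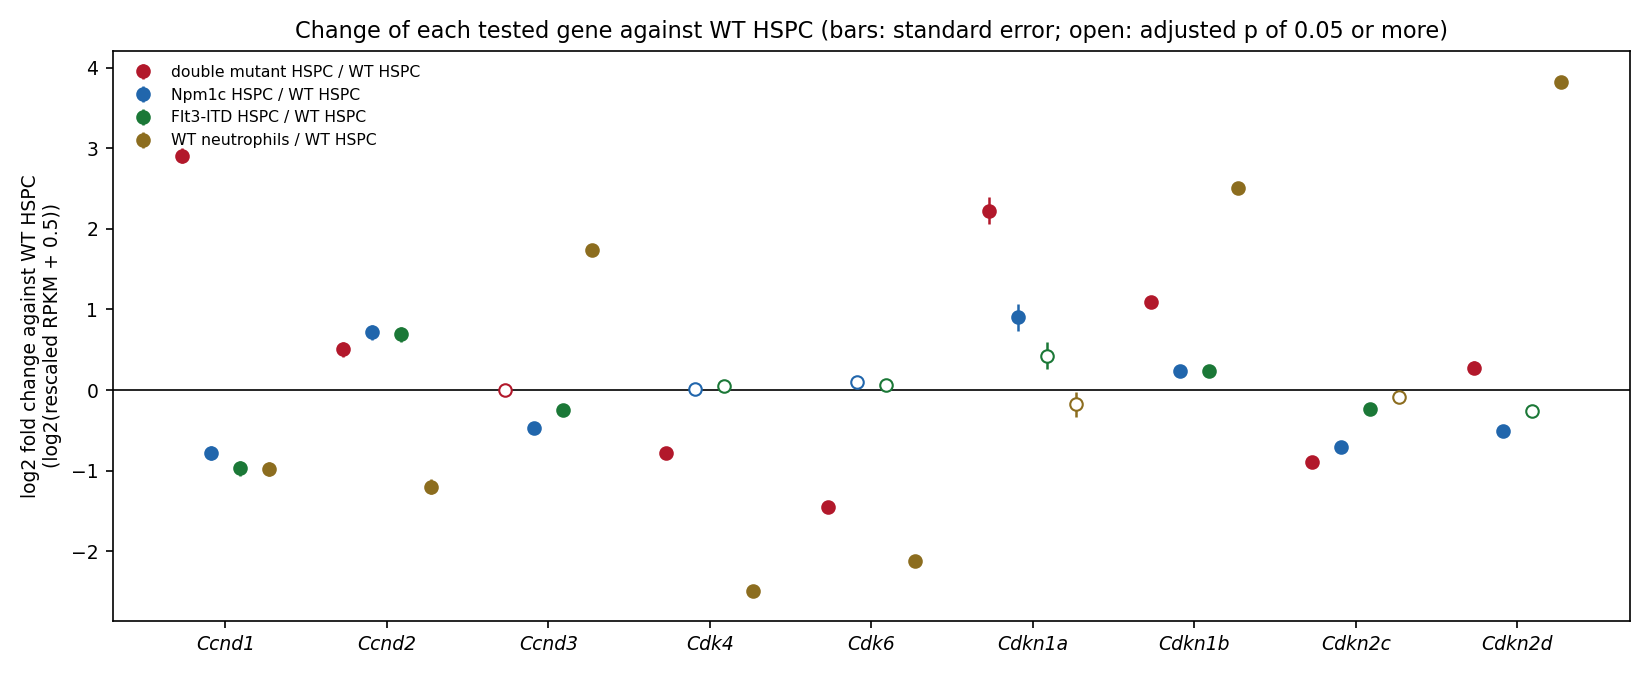
Log2 change of the 9 tested genes against WT HSPC on the log2(rescaled RPKM + 0.5) scale (points, with SE bars; filled where the adjusted p was under 0.05), for double mutant, Npm1c and Flt3-ITD HSPC and WT neutrophils. Ccnd1 rose by 2.91 in the double mutant and fell in the other 3 groups, and Cdkn2d rose by 3.82 in neutrophils.

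Against the single mutants, 5 of the 9 tested genes rose and 3 fell in double mutant HSPC in each comparison. Of all genes tested, 81.7% were called against Npm1c (37.6% higher and 44.1% lower) and 78.7% against Flt3-ITD (37.1% higher and 41.6% lower). Against Npm1c, Ccnd3, Cdkn1a, Cdkn1b and Cdkn2d rose beside Ccnd1 (0.48, 1.33, 0.86 and 0.79), and Cdk4 and Cdk6 fell by 0.80 and 1.55. Against Flt3-ITD the same 4 genes rose (0.26, 1.80, 0.86 and 0.54), and Cdk4 and Cdk6 fell by 0.83 and 1.51. Cdkn1a met the minimum for testing through the double mutant libraries and Npm1c replicate 2, so its rise was favoured by selection. The Ccnd3 call against Flt3-ITD was lost on the deposited scale (adjusted p = 0.229, limma) and after quantile normalization (adjusted p = 0.141, limma). Cdkn2c fell by 0.65 against Flt3-ITD (SE 0.06, adjusted p = 4.91e-05, limma). Its fall of 0.18 on the log2 scale against Npm1c (SE 0.06, adjusted p = 0.0283, limma) was lost without Npm1c replicate 2 (adjusted p = 0.163, limma), with a Y-linked term (adjusted p = 0.0695, limma), on the deposited scale and without either double mutant replicate.

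The interaction term asks whether the double mutant differs from the sum of the single mutant changes on the log2 scale. It was called for 8 of the 9 tested genes, 5 higher and 3 lower, where 74.2% of genes tested were called, 35.2% higher and 39% lower. Ccnd1 had 4.66 (SE 0.13, adjusted p = 1.9e-07, limma), which ranked 74 from the highest of 9517. Cdkn2d (1.05), Ccnd3 (0.73) and Cdkn1b (0.62) were also above the sum, and Cdk6 (-1.62), Ccnd2 (-0.90) and Cdk4 (-0.85) below it. Cdkn1a had 0.90 (SE 0.23, adjusted p = 0.0102, limma), which was not called with a pseudocount of 0.1 (adjusted p = 0.0564, limma) or with voom on whole reads (adjusted p = 0.199, limma). This gene was also high in the double mutant by selection. Cdkn2c, at 0.06, was not called (adjusted p = 0.539, limma).

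In WT neutrophils both kinases and 2 of the D cyclins were lower than in WT HSPC and 2 inhibitors were higher. Against WT HSPC, 3 of the 9 tested genes rose and 4 fell, where 90.7% of 10207 genes tested were called, 45.8% higher and 44.9% lower. Cdk4 fell by 2.50 on the log2 scale (SE 0.04, adjusted p = 2.19e-10, limma) and Cdk6 by 2.12 (SE 0.06, adjusted p = 3.76e-09, limma). Cdkn2d rose by 3.82 (SE 0.07, adjusted p = 3.51e-10, limma), Cdkn1b by 2.51 (SE 0.04, adjusted p = 1.47e-10, limma) and Ccnd3 by 1.74 (SE 0.05, adjusted p = 3.98e-09, limma). Ccnd1 and Ccnd2 fell, with log2 changes of -0.98 and -1.199 (adjusted p = 8.06e-06 and 1.56e-06, limma). Cdkn1a (-0.18) and Cdkn2c (-0.09) were not called (adjusted p = 0.296 and 0.159, limma). Both were called lower on the deposited scale (-0.38 for Cdkn1a, adjusted p = 0.0481, and -0.91 for Cdkn2c, adjusted p = 9.16e-06, limma) and after quantile normalization (-0.51, adjusted p = 0.0091, and -0.47, adjusted p = 4.4e-05, limma), which made 6 of the 9 lower on the deposited scale. The deposited scale moved the median gene by -0.70 and gave 2892 genes higher and 6391 lower, against 4678 and 4583 after rescaling. Closest in profile to Cdkn2d were Cib2, Arid3a and Map3k15 (0.136, 0.144 and 0.161). Those closest to Cdkn1b were Map1lc3a, of autophagy, Actr2, of actin branching, and Adcy4, an adenylyl cyclase (0.0708, 0.0757 and 0.0874). Closest to Ccnd3 were Gucd1, Ksr1 and Rnf25 (0.0725, 0.0744 and 0.0938), and closest to Cdkn1a were Rgs1, Ccl17 and Pafah1b3 (0.192, 0.197 and 0.265). Rgs1, Ccl17 and Pafah1b3 reached the candidate minimum only in the double mutant. Cib2, Arid3a, Map3k15, Map1lc3a, Adcy4, Ksr1 and Rnf25 reached it only in neutrophils. Each was thus high in that group by selection.

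Downstream of these genes, the S phase list fell as a whole in double mutant HSPC. All 25 of its genes were called lower against WT HSPC, with a median log2 change of -0.67 beside -0.04 over all genes tested, of which 41.2% were called lower. Cdc6, which loads the replicative helicase, fell by 1.116 on the log2 scale (SE 0.05, adjusted p = 1.67e-06, limma), with means of 5.41 rescaled RPKM in double mutant HSPC and 12.3 in WT HSPC. Of the 25 G2 and mitosis genes 24 fell and 1, Kif23, a midzone kinesin named after its value was seen, rose (median -0.72). Top2a, the mitotic topoisomerase, averaged 37.5 rescaled RPKM in double mutant HSPC and 77.4 in WT HSPC. In Npm1c, 14 S phase genes and 22 G2 and mitosis genes fell (medians -0.17 and -0.30), where 18% of all genes tested did. In Flt3-ITD, 2 and 9 fell (medians -0.04 and -0.14), where 8.78% of all genes did. Leaving out 1 library of either group compared moved the Npm1c counts to between 6 and 10 and between 14 and 19, and the Flt3-ITD counts to between 0 and 7 and between 2 and 11. Mki67, the proliferation antigen, averaged 70.5 rescaled RPKM in double mutant HSPC, 34.6 in Npm1c, 32.9 in Flt3-ITD, 61.1 in neutrophils and 96.3 in WT HSPC. The double mutant exceeded the single mutants for this gene, by 1.02 on the log2 scale against Npm1c and 1.09 against Flt3-ITD (adjusted p = 2.79e-05 and 2.27e-05, limma). In neutrophils all 25 S phase genes were lower (median -1.48), as were 24 G2 and mitosis genes (median -0.81), where 44.9% of all genes tested were lower. Kif23 was higher there, with means of 21.6 rescaled RPKM in neutrophils and 15.4 in WT HSPC.

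**Figure D4:**
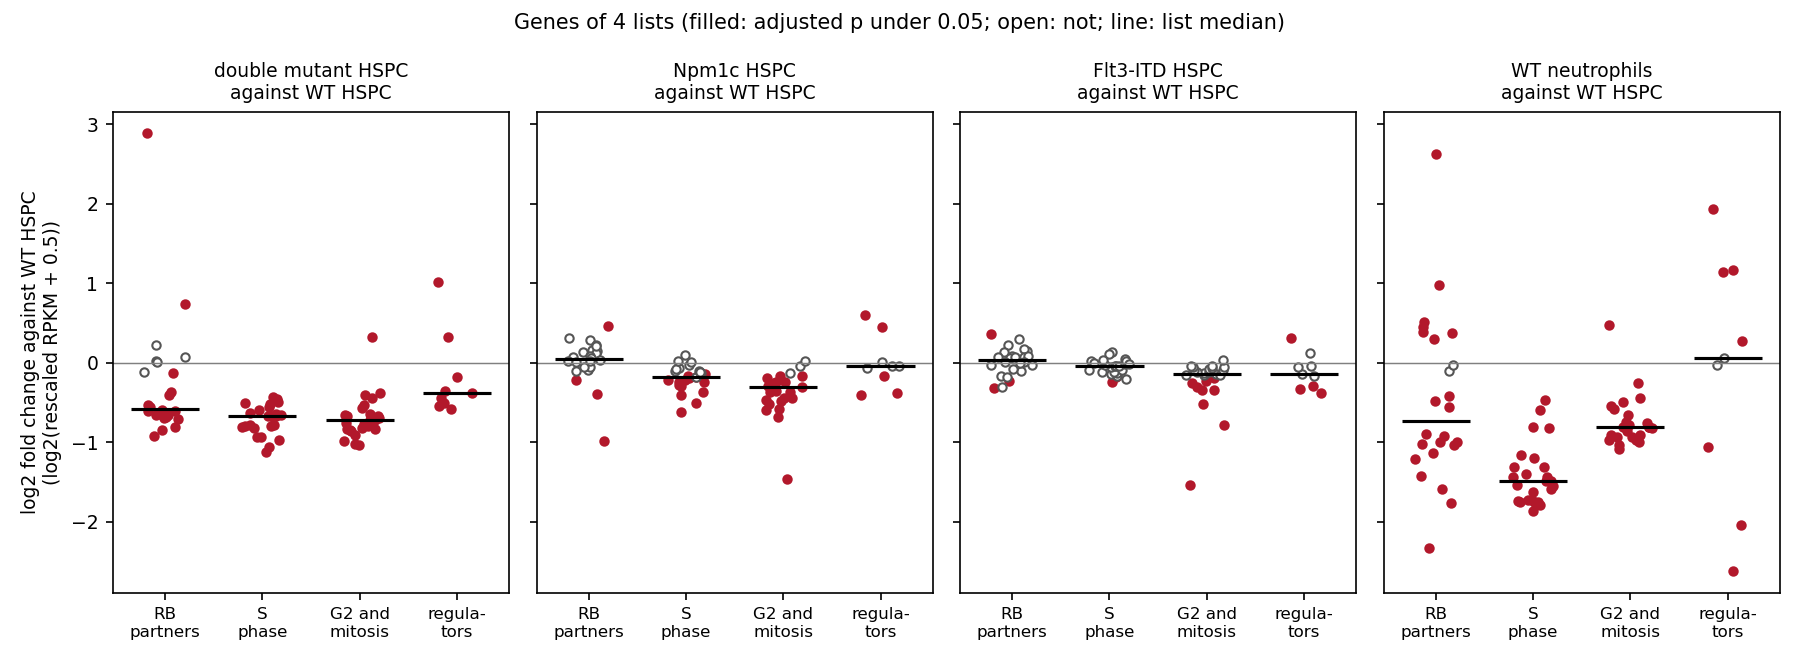
Log2 change against WT HSPC on the log2(rescaled RPKM + 0.5) scale for each tested gene of 4 lists (1 panel per comparison, filled where the adjusted p was under 0.05, line at the list median). S phase medians were -0.67 in double mutant HSPC, -0.17 in Npm1c, -0.04 in Flt3-ITD and -1.48 in neutrophils.

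Of 24 tested partners of the RB pathway, 2 rose and 17 fell in double mutant HSPC against WT HSPC (median -0.58). Their called share was near the 78.1% of all genes, though those split into 36.9% higher and 41.2% lower. Cdkn2b, the INK4 inhibitor p15, averaged 3.34 rescaled RPKM in double mutant HSPC, 0.0723 in Npm1c, 0.0124 in Flt3-ITD, 0.210 in neutrophils and 0.0205 in WT HSPC, and rose by 2.88 against WT HSPC (SE 0.06, adjusted p = 2.79e-08, limma). It met the minimum through the double mutant alone. Tfdp2 and Tfdp1, partners of E2F factors, fell by 0.92 and 0.70 on the log2 scale (adjusted p = 5.43e-06 and 1.24e-05, limma). In Npm1c, 1 rose and 3 fell, with E2f2 down by a log2 change of -0.99 (SE 0.12, adjusted p = 0.0022, limma), and in Flt3-ITD, 1 rose and 2 fell, where 38.4% and 17.4% of all genes were called. In both, the gene that rose was Ccnh, a subunit of the CDK-activating kinase. In neutrophils 7 rose and 15 fell, near the 90.7% called of all genes (45.8% higher and 44.9% lower). There Cks1b, a CDK subunit that helps degrade p27, fell by 1.58 (SE 0.04, adjusted p = 2.5e-09, limma).

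Reads could be shared where genes overlap, since use of the strand in counting was not given in the sources used here. Ccnd1 overlaps LTO1 on the opposite strand by 1771 bases, Ccnd3 overlaps Bysl by 361 and Cdk4 overlaps Tspan31 by 641. Cdk6 overlaps Gm17590 by 8013 and Gm42435 by 1448, Ccnd2 overlaps a pair of antisense genes by 2805 and 994, Cdkn1a overlaps AC167363.2 by 1046 and Cdkn1c overlaps Gm44732 by 892. Tspan31 averaged 21.1 rescaled RPKM in double mutant HSPC, 4.82 in neutrophils and 20.2 in WT HSPC.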

How the data were processed

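RNA was measured in 10 mouse libraries, 5 groups of 2, grouped by the labels. The authors deposited RPKM for 16771 genes per library, reads divided by gene length and library total. STAR 2.4.0, HTSeq, DiffBind and mm10 are named per the submitters' processing notes, with no roles. Whole reads were recovered from RPKM steps for 16650 of 16655 genes (tolerance 0.02 reads). No count test was the main one. Libraries were rescaled by median-of-ratios factors over 13519 genes. Tests covered genes reaching 1 rescaled RPKM in 2 or more of the libraries fitted (9517 genes in 8 HSPC libraries, 10207 in all 10) with limma 3.58.1 (R 4.3.3) on log2(value + 0.5), with a variance trend and two-sided Benjamini-Hochberg adjusted p. Lengths, positions and overlaps came from GENCODE M21 on GRCm38. Values were handled with Python 3.11.15, NumPy 2.4.6, pandas 2.3.3, SciPy 1.17.1 and matplotlib 3.10.9. The fit and the recovery were tested on simulated data. No pair of replicates agreed within sampling noise (chi-square per degree of freedom 2.30 to 32.6). Nothing in the labels says that replicate numbers pair samples.

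The genes and lists were chosen with earlier results of these data known. Named genes were the 10 genes, up to 3 per list and comparison by smallest adjusted p, and the 3 closest profiles for genes with a range of at least 2 on the log2 scale and at least 2 rescaled RPKM. The promoter patterns were chosen after values were seen, and the looser p53 pattern after the exact one had matched none of the genes. Alternatives were deposited RPKM, quantile normalization, pseudocounts of 0.1 and 1, no filter, a replicate block, a Y-linked term and each library left out. Voom on whole reads and 2 other gene lengths were added after seeing the data.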

Additional observations from a re-analysis of the deposited data

Results flagged for a closer look

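The change of 8 genes in the double mutant differed from the sum of the single mutant changes, by the interaction term of limma on the log2 scale, which was called for 74.2% of all 9517 genes tested. The terms were 4.66 for Ccnd1, -0.90 for Ccnd2, 0.73 for Ccnd3, -0.85 for Cdk4, -1.62 for Cdk6, 0.90 for Cdkn1a, 0.62 for Cdkn1b and 1.05 for Cdkn2d. The Cdkn1a term was not called with a pseudocount of 0.1 (adjusted p = 0.0564, limma) or with voom (adjusted p = 0.199, limma). Cdkn1a was also high in the double mutant by selection. The double mutant libraries also stood apart in dendritic cell markers (summed 4936.8 to 4994.2 rescaled RPKM, against 33.1 to 33.8 in WT HSPC), whose part in these terms was not tested.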

How the results depend on the processing

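Of 63 results for these genes, 51 passed the threshold and 40 of those did so under every alternative run. Of 792 alternative values, 738 kept direction and side of the threshold, 29 lost the call, 14 gained one and 16 changed sign, of which 11 stayed on their side of the threshold. The sign changed on deposited RPKM for Cdk4 (-0.30), Cdk6 (-0.21) and Cdkn1b (-0.049) in Npm1c, Cdk4 (-0.13) and Cdk6 (-0.12) in Flt3-ITD and Ccnd3 (-0.30) and Cdkn2d (-0.035) in double mutant against WT HSPC. After quantile normalization it changed for Cdk4 in Npm1c (-0.040), Cdk6 in Flt3-ITD (-0.011), Ccnd3 in the double mutant (-0.15) and Cdkn2c in the interaction (-0.067). Leaving out 1 library gave -0.016 to 0.045 for Cdk4 in Npm1c, -0.030 to 0.16 for Cdk6 in Flt3-ITD, -0.021 to 0.033 for Ccnd3 in the double mutant and -0.00092 to 0.12 for Cdkn2c in the interaction. The cause was not tested.

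On deposited RPKM 1 of these genes was higher in Flt3-ITD and 3 in the double mutant. Over all genes, deposited RPKM gave 242 higher and 5638 lower in Npm1c, 180 and 3033 in Flt3-ITD, 2316 higher in the double mutant and 2892 higher in neutrophils. With no filter, so with more genes tested, 510 were higher in Flt3-ITD, and the double mutant had 5305 higher against WT, 5390 against Npm1c and 5302 against Flt3-ITD. Leaving out 1 library gave 1 to 3 of these genes higher in Npm1c, and 0 to 3 higher and 1 to 4 lower in Flt3-ITD. Over all genes it gave 643 to 1174 higher and 546 to 1058 lower in Npm1c, 34 to 1610 higher and 29 to 1465 lower in Flt3-ITD, and 2350 to 3604 higher in double mutant against Flt3-ITD. Deviations of replicate 1 from its group mean were little correlated between HSPC groups (correlations of -0.11 to 0.0293). That does not exclude a pairing of samples by replicate number. The replicate block ended 1 call among these genes, Cdkn2c in Flt3-ITD (-0.24, adjusted p = 0.0626, limma).

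With 0.5 added, the Ccnd1 share was 65.3% in double mutant, 12.8% in Npm1c, 10.9% in Flt3-ITD, 8.76% in neutrophils and 23.2% in WT HSPC. With 0.5 added, the Ccnd2 share was 21.5% in double mutant, 63.2% in Npm1c, 61.5% in Flt3-ITD, 12.6% in neutrophils and 41.2% in WT HSPC. With 0.5 added, the Ccnd3 share was 13.2% in double mutant, 23.99% in Npm1c, 27.6% in Flt3-ITD, 78.6% in neutrophils and 35.5% in WT HSPC. With 0.5 added, the log2 Cdk6/Cdk4 was -0.16 in double mutant, 0.59 in Npm1c, 0.52 in Flt3-ITD, 0.85 in neutrophils and 0.50 in WT HSPC. With 0.5 added, the log2 Cdkn2d/Cdkn2c was 0.76 in double mutant, -0.20 in Npm1c, -0.43 in Flt3-ITD, 3.48 in neutrophils and -0.41 in WT HSPC. With merged exons, the Ccnd1 share was 48.1% in double mutant, 5.69% in Npm1c, 4.49% in Flt3-ITD, 2.14% in neutrophils and 11.1% in WT HSPC. With merged exons, the Ccnd2 share was 23.7% in double mutant, 55.5% in Npm1c, 51.6% in Flt3-ITD, 5.68% in neutrophils and 32.6% in WT HSPC. With merged exons, the Ccnd3 share was 28.2% in double mutant, 38.9% in Npm1c, 43.9% in Flt3-ITD, 92.2% in neutrophils and 56.2% in WT HSPC. With merged exons, the log2 Cdk6/Cdk4 was -1.39 in double mutant, -0.63 in Npm1c, -0.70 in Flt3-ITD, -0.27 in neutrophils and -0.72 in WT HSPC. With merged exons, the log2 Cdkn2d/Cdkn2c was 0.094 in double mutant, -0.94 in Npm1c, -1.17 in Flt3-ITD, 2.85 in neutrophils and -1.15 in WT HSPC. With principal transcripts, the Ccnd1 share was 28.4% in double mutant, 2.86% in Npm1c, 2.14% in Flt3-ITD, 0.684% in neutrophils and 4.73% in WT HSPC. With principal transcripts, the Ccnd2 share was 16.5% in double mutant, 32.9% in Npm1c, 29.0% in Flt3-ITD, 2.14% in neutrophils and 16.4% in WT HSPC. With principal transcripts, the Ccnd3 share was 55.0% in double mutant, 64.3% in Npm1c, 68.9% in Flt3-ITD, 97.2% in neutrophils and 78.9% in WT HSPC. With principal transcripts, the log2 Cdk6/Cdk4 was -1.77 in double mutant, -1.01 in Npm1c, -1.08 in Flt3-ITD, -0.65 in neutrophils and -1.10 in WT HSPC. With principal transcripts, the log2 Cdkn2d/Cdkn2c was 0.12 in double mutant, -0.92 in Npm1c, -1.15 in Flt3-ITD, 2.87 in neutrophils and -1.12 in WT HSPC.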
